A study of Mus musculus with 6 samples.

Results

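Genes that build iron-sulfur clusters and genes that bring iron into the cell, store it and sense it were followed in cultured mouse CD8+ T cells. The 9 genes were taken by symbol from the count table, which holds 11922 genes. They are Nfs1, Iscu, Glrx5, Isca1 and Isca2, which assemble clusters in mitochondria, and Tfrc, Slc11a2, Fth1 and Ireb2, which handle iron. Splenic CD8+ T cells of C57BL6/J mice, isolated on magnetic beads, were activated for 72 hours with beads carrying antibodies to CD3 and CD28 and were then expanded for 4 days. Interleukin-2 at 100 units per ml was present throughout in both groups. The vehicle group received water and the AOA group received 0.25 mM AOA (aminooxyacetic acid) for all 7 days. AOA reacts with pyridoxal phosphate (PLP), the coenzyme made from vitamin B6, and so blocks a range of enzymes that use PLP rather than 1 of them. Cells of the same 3 mice went into both groups, which gave 3 libraries per group, and replicate numbers are those of the mice. All mice were of the same strain, and the study's methods put its animals, of either sex, at more than 6 weeks old.

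Iron-sulfur clusters are small cofactors of iron and sulfide that carry electrons or hold proteins in shape. NFS1 is itself a PLP enzyme. It takes sulfur from cysteine and passes it to the scaffold protein ISCU, where LYRM4 and ferredoxin take part in building the cluster. The chaperones HSCB and HSPA9 then help move the cluster to GLRX5, and ISCA1 and ISCA2 pass it on to mitochondrial proteins. Cells balance iron through the iron regulatory proteins IRP1, encoded by Aco1, and IRP2, encoded by Ireb2. When iron is scarce these proteins bind hairpins called iron-responsive elements (IREs) in messenger RNA. Binding near the start of ferritin messages blocks their translation, while binding in the 3′ UTR of the transferrin receptor message keeps that message from being degraded. The transferrin receptor is the main route of iron into dividing lymphocytes. The question that these genes address is whether the messages of a PLP-dependent pathway and of its iron supply differed in cells kept in a PLP enzyme inhibitor.

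Total counts were 12881962 to 18934869 in the vehicle libraries and 18696114 to 21997078 in the AOA libraries. Levels below are in CPM, which sets the count of a gene against the total of its library after TMM scaling in edgeR, and each log2 fold change compares AOA with vehicle. A gene is called raised or lowered where the adjusted p of edgeR's quasi-likelihood test was under 0.05 over the 11759 genes tested. By this rule 53.0% of all tested genes were called, 26.2% raised and 26.8% lowered, with a median log2 fold change of -0.02. The 2 groups of libraries did not overlap in 62.1% of tested genes. The smallest p that exact permutation of 3 against 3 libraries can reach is 0.1, and single genes were therefore tested in the fit across all genes alone. Vehicle replicate 2 and AOA replicate 1 stood apart within their groups, with a chi-square per gene of 55.9 to 72.3 against the other libraries of the group, where the remaining pairs gave 10.2 and 10.7. Vehicle replicate 2 was the vehicle library nearest the AOA mean for 50% of tested genes and for 6 of the 9 genes, namely Nfs1, Iscu, Tfrc, Slc11a2, Fth1 and Ireb2.

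All 9 genes passed the low-count filter. Tfrc rose 5.14-fold and Glrx5 rose 1.56-fold with AOA, and none of the 9 was called lowered. Thus 2 of 9 were called, beside 53.0% of all tested genes, and 2 had an unadjusted p under 0.05. DESeq2 and limma also called 2 raised and 0 lowered. The groups did not overlap for 4 of the 9, beside 62.1% of all tested genes. These were Nfs1, Glrx5, Isca2 and Tfrc, and in each the AOA libraries were the higher ones. The median log2 fold change of the 9 genes was 0.17. Without vehicle replicate 2 the number called was 5, with Iscu also raised and Fth1 and Slc11a2 lowered, while 57.6% of all genes tested were then called.

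**Figure D1:**
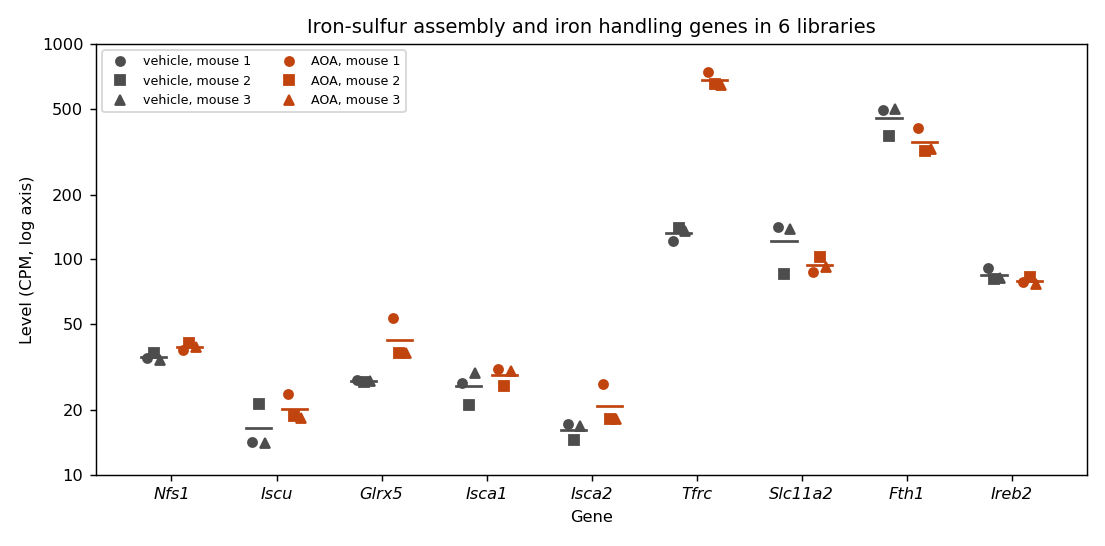
Level of each of the 9 genes in CPM (log axis) in the 6 libraries, with vehicle in grey, AOA in orange, a symbol for each mouse and a bar at the mean of each group. Tfrc lies at 122 to 140.3 CPM with vehicle and at 646 to 743 CPM with AOA, and no other gene of the 9 separates the groups as widely.

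Tfrc (Entrez gene 22042) encodes transferrin receptor 1, which takes up iron bound to transferrin, and it lies on the plus strand of GRCm38 at chr16:32608920-32632794. In mice 1, 2 and 3 its level was 122, 140.3 and 135 CPM with vehicle, against 743, 654 and 646 CPM with AOA. Every AOA library was therefore far above every vehicle library, and the spread within each group was small beside the gap. The group mean was 133 ± 9.15 CPM (SD, n = 3) in vehicle and 681 ± 54.0 CPM (SD, n = 3) in AOA cultures. The log2 fold change was 2.36 (standard error, SE, 0.15, edgeR adjusted p = 1.38e-05), with a 95% interval of 4.08 to 6.47 on the fold scale. It lay between 2.27 and 2.44 in all 15 alternative analyses. Tfrc is also a gene of dividing cells. In the paper, cell counts and cell division early in culture fell with rising AOA dose. The 6 proliferation genes examined here (Mki67, Top2a, Mcm2, Pcna, Ccnb1 and Cdk1) were raised in 6 of 6 cases, where 26.2% of all tested genes were raised. Their median log2 fold change was 2.61. Their summed level was 682 to 852 CPM with vehicle and 3798 to 4703 CPM with AOA, and their part in the rise of Tfrc was not tested. In RNA from whole cultures, fewer cells of a type and less RNA per cell cannot be told apart.

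Slc11a2 (Entrez gene 18174), at chr15:100387898-100425072 on the minus strand, encodes DMT1, the transporter that moves ferrous iron out of the endosome after transferrin has released it. Its level was 142, 85.3 and 138 CPM in the vehicle libraries and 87.5, 103 and 92.3 CPM in the AOA libraries. Vehicle replicate 2 lay below every AOA library and the other vehicle libraries lay above them, so the groups overlapped and 1 of 3 mice was higher with AOA. The log2 fold change was -0.37 (SE 0.20, edgeR adjusted p = 0.136), with an interval from -0.81 to 0.07. Without vehicle replicate 2 it was -0.54 (edgeR adjusted p = 0.00639), and the gene was then called lowered.

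Fth1 (Entrez gene 14319), at chr19:9980598-9985098 on the plus strand, encodes the heavy chain of ferritin, which oxidises iron for storage. Its level was 492, 372 and 499 CPM in the vehicle libraries and 408, 319 and 327 CPM in the AOA libraries. The AOA value was the lower one in each of the 3 mice, but the 408 CPM of AOA replicate 1 lay above the 372 CPM of vehicle replicate 2. The log2 fold change was -0.37 (SE 0.17, edgeR adjusted p = 0.0992), with an interval from -0.76 to 0.02. This value lay close to the threshold. Fth1 was called lowered without vehicle replicate 2 (-0.46, adjusted p = 0.0319), without AOA replicate 1 (-0.49, adjusted p = 0.0417) and with upper quartile scaling (-0.46, adjusted p = 0.0455), all by edgeR. The other 12 of 15 alternatives did not call it. Without vehicle replicate 3, for example, its log2 fold change was -0.27 (edgeR adjusted p = 0.313).

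Ireb2 (Entrez gene 64602), at chr9:54863789-54912530 on the plus strand, encodes IRP2, which binds IREs when iron is low and is degraded when iron is plentiful. It was at 90.8, 81.3 and 82.1 CPM with vehicle and at 78.7, 82.8 and 76.5 CPM with AOA. The groups overlapped, and the log2 fold change of -0.10 (SE 0.12, edgeR adjusted p = 0.527) had an interval from -0.36 to 0.17. Counts of messenger RNA do not measure the protein, at which level IRP2 is known to be controlled.

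IREs are shown for these genes because they are the element that ties the Tfrc, Slc11a2 and ferritin messages to IRP1 and IRP2. Elements were sought in every GENCODE vM21 coding transcript of each gene. They are printed 5′ to 3′ as DNA of the message strand, with capitals on the bulged C and on the 6-base loop between the paired arms. The search took the letters CNNNNNCAGTGN on the message strand alone, with 5 paired bases between the bulge and the loop and at least 4 of 5 pairs below the bulge. Tfrc holds 4 such elements, all in exon 19 of 19, in its 3′ UTR.
Tfrc element 1, chr16:32631220-32631246, plus strand: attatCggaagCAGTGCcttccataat
Tfrc element 2, chr16:32631599-32631625, plus strand: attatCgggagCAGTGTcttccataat
Tfrc element 3, chr16:32631664-32631690, plus strand: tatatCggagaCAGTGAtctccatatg
Tfrc element 4, chr16:32631711-32631737, plus strand: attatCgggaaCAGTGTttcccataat
Slc11a2, 3′ UTR, chr15:100395153-100395180, minus strand: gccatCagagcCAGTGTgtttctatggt
Fth1, 5′ UTR, chr19:9982733-9982759, plus strand: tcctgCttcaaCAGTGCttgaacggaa
Ftl1, 5′ UTR, chr7:45459780-45459806, minus strand: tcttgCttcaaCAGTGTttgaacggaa
Epas1, 5′ UTR, chr17:86753769-86753796, plus strand: acaatCctcggCAGTGTcctgagactgt
The Slc11a2 and Epas1 elements have 1 unpaired base in the upper stem, and the Slc11a2 element lies in exon 16 of 16. Among the genes of the count table with a UTR to search, the form with a fully paired upper stem was found in the 5′ UTR of 2 of 10485 genes (0.0191%), which were Fth1 and Ftl1, and in the 3′ UTR of 5 of 11030 genes (0.0453%). The form with 1 unpaired base was counted apart and was found in 4 of the 5′ UTRs (0.0381%) and 15 of the 3′ UTRs (0.136%). Both counts took the transcript with the longest coding sequence of each gene. A match describes letters and pairing and is not a measurement of binding. Cdc14a is on the IRE list from background knowledge, and no element of either form was found in the transcripts searched for it.

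Messages listed with an IRE were not all called in the same direction. Of 3 messages on the list with a 3′ IRE, Tfrc was raised and Slc11a2 was not called. Cdc14a, which encodes a phosphatase of the cell cycle and in which no element was found, was lowered. The 3′ messages with an element shown above, Tfrc and Slc11a2, were thus not called in opposite directions. Cdc14a was at 44.8, 50.7 and 45.4 CPM with vehicle and at 28.2, 30.8 and 27.5 CPM with AOA, a log2 fold change of -0.70 (SE 0.13, edgeR adjusted p = 0.00186). Of 3 messages examined with a 5′ IRE, Epas1 was lowered, and Fth1 and Ftl1 were not called. Ftl1, the ferritin light chain, was at 267, 391 and 254 CPM with vehicle and at 292, 258 and 251 CPM with AOA. Its log2 fold change was -0.19 (SE 0.19, edgeR adjusted p = 0.422). Slc40a1 and Alas2, also on the 5′ list, were not analysed here.

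The ratio of Tfrc to Fth1 sets the uptake receptor against the storage protein within a library, so that it does not depend on library scaling. In mice 1, 2 and 3 it was 0.249, 0.377 and 0.271 with vehicle, against 1.82, 2.05 and 1.97 with AOA. Tfrc counts were thus below Fth1 counts in every vehicle library and above them in every AOA library. Per length, Tfrc remained below Fth1 in all 6 libraries, at ratios from 0.0765 to 0.116 in the vehicle cultures and from 0.561 to 0.63 in the AOA cultures. On the log2 scale the ratio averaged -1.77 ± 0.32 (SD, n = 3) with vehicle and 0.96 ± 0.09 (SD, n = 3) with AOA. The difference within mice 1, 2 and 3 was 2.87, 2.44 and 2.87, a mean of 2.73 ± 0.25 (SD, n = 3) or 6.63-fold. It ranged from 2.61 to 2.91 when each library was left out in turn. No test was made on this ratio, which combines genes already examined.

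**Figure D2:**
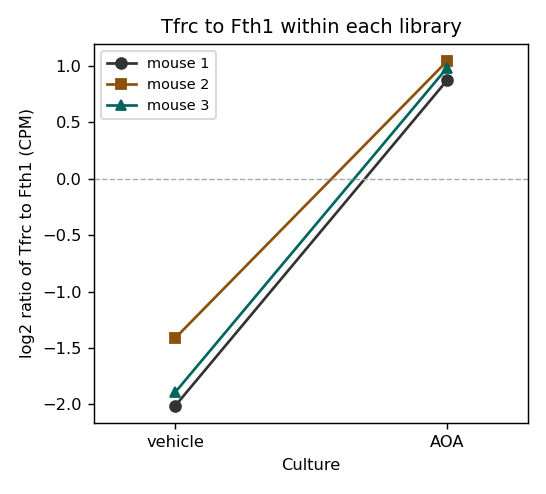
Log2 ratio of Tfrc to Fth1 in each library, with a line joining the vehicle and AOA cultures of each of the 3 mice. The lines run from between -2.01 and -1.41 to between 0.87 and 1.04.

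Nfs1 (Entrez gene 18041), at chr2:156123639-156144186 on the minus strand, encodes the PLP-dependent cysteine desulfurase. Its level was 34.8, 36.9 and 34.0 CPM in the vehicle libraries and 37.9, 41.0 and 39.2 CPM in the AOA libraries. All AOA libraries were above all vehicle libraries, but by little. The log2 fold change was 0.16 (SE 0.12, edgeR adjusted p = 0.304), and its interval on the fold scale ran from 0.920 to 1.36. Nfs1 was called in none of the 15 alternative analyses, where its log2 fold change was 0.07 to 0.23. In GENCODE vM21 the locus overlaps Romo1 on the other strand and the readthrough gene Gm28036 on the same strand. No source used here says how reads in shared exons were counted.

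Besides Nfs1, the PLP enzymes examined here that act on the sulfur of cysteine or on selenocysteine were Scly and Mocos. Scly, which releases selenium from selenocysteine, was at 24.3, 35.2 and 28.6 CPM with vehicle and at 35.5, 30.9 and 38.2 CPM with AOA, and was not called (0.25 on the log2 scale, edgeR adjusted p = 0.246). Mocos, which places sulfur on the molybdenum cofactor, fell from 12.2, 12.9 and 14.3 CPM to 5.79, 5.23 and 6.15 CPM. Its log2 fold change was -1.20 (SE 0.19, edgeR adjusted p = 0.000721), and its groups did not overlap.

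Iscu (Entrez gene 66383), at chr5:113772748-113778288 on the plus strand, encodes the scaffold on which the cluster is built. Its level was 14.2, 21.2 and 14.1 CPM with vehicle and 23.8, 18.7 and 18.4 CPM with AOA. Vehicle replicate 2 lay among the AOA libraries, and 2 of 3 mice were higher with AOA. The log2 fold change was 0.30 (SE 0.21, edgeR adjusted p = 0.254). Without vehicle replicate 2 it was 0.55 (edgeR adjusted p = 0.0218), and Iscu was then called raised.

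Glrx5 (Entrez gene 73046), at chr12:105032688-105042906 on the plus strand, encodes the mitochondrial glutaredoxin that receives the new cluster. It was at 27.5, 26.9 and 27.2 CPM in the vehicle libraries and at 53.6, 36.6 and 36.7 CPM in the AOA libraries. The vehicle libraries were nearly alike, and AOA replicate 1 was higher than the other AOA libraries. The log2 fold change was 0.64 (SE 0.17, edgeR adjusted p = 0.0128), with an interval from 1.19 to 2.04 on the fold scale. Glrx5 stayed called with each library left out in turn, at 0.43 without AOA replicate 1.

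Isca2 (Entrez gene 74316), at chr12:84773251-84775088 on the plus strand, and Isca1 (Entrez gene 69046), at chr13:59755409-59769810 on the minus strand, encode the A-type carriers needed for the larger, cube-shaped clusters. Isca2 was at 17.2, 14.5 and 16.8 CPM with vehicle and at 26.5, 18.2 and 18.1 CPM with AOA. Its AOA libraries all lay above the vehicle libraries, but the log2 fold change of 0.37 (SE 0.19, edgeR adjusted p = 0.135) did not pass the threshold. Without AOA replicate 1 it was 0.17 (adjusted p = 0.378). Isca1 was at 26.6, 21.1 and 29.7 CPM with vehicle and at 31.1, 25.8 and 30.2 CPM with AOA. Each mouse was higher with AOA, the groups overlapped, and the log2 fold change was 0.17 (SE 0.17, edgeR adjusted p = 0.418). Isca1 overlaps Etohd2 on the other strand and Gm49354 on the same strand.

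Glrx5, Iscu and Isca2 have short messages, with deposited lengths of 1002, 887 and 868 bases, and AOA replicate 1 was the highest AOA library for each. Over the 794 tested genes of 800 to 1200 bases, AOA replicate 1 lay above the other AOA libraries by a median of 0.41 on the log2 scale, against 0.02 over all tested genes. The median log2 fold change of these 794 genes was 0.20, with 33.9% raised and 20.5% lowered. The part of gene length in the result for Glrx5 was not tested.

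Levels can be compared between genes per length, as RPKM, which is CPM over the gene's length in kilobases. With vehicle, Fth1 was highest at 301 ± 47.2 RPKM (SD, n = 3) and stood apart from the rest. Glrx5 (27.1), Tfrc (27), Slc11a2 (21.6), Isca2 (18.7), Iscu (18.6) and Nfs1 (17.2 RPKM) followed, each overlapping its neighbour in the order. Ireb2 (14.6) and Isca1 (13.5 RPKM) were lowest and also overlapped. With AOA, Fth1 at 233 ± 32.4 RPKM (SD, n = 3), Tfrc at 139 ± 11 RPKM (SD, n = 3) and Glrx5 at 42.2 ± 9.77 RPKM (SD, n = 3) each stood apart from the next. Isca2 (24.1) and Iscu (22.9) overlapped and lay above Nfs1 (19.2), which lay above Slc11a2 (16.7), Isca1 (15.2) and Ireb2 (13.7 RPKM). Tfrc thus overlapped Glrx5 with vehicle and stood above it with AOA, while Nfs1 was within the lower part of the order in both groups.

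Of 23 further genes of cluster assembly, 13 were called, near the 53.0% of all tested genes. By direction 11 were raised, 2 were lowered and 10 were not called, with a median log2 fold change of 0.50. Over all tested genes 26.2% were raised and 26.8% lowered, and the list was chosen with earlier results of these data known. Without vehicle replicate 3 the number raised was 6, and without vehicle replicate 1 or AOA replicate 1 it was 7. Of the 11 genes raised, Ndufab1 and Nfu1 have deposited lengths of 800 and 955 bases and fall in the length class described above. Bola3, at 530 bases, is shorter than this class, and Ciao2a, at 1253 bases, lies just above it. AOA replicate 1 was the highest AOA library for each of these genes. With the mouse as a block, Bola1 was also raised (0.69, adjusted p = 0.0449) and Hscb lowered (-0.52, adjusted p = 0.0291), which gave 12 raised and 3 lowered.

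Among 5 partners of NFS1 and ISCU in cluster synthesis, 3 were called, all of them raised. Over all tested genes 53.0% were called and 26.2% raised. Lyrm4, which encodes the small protein that stabilises NFS1, rose from 5.32, 8.43 and 6.08 CPM to 16.6, 11.8 and 12 CPM, a log2 fold change of 1.02 (SE 0.24, edgeR adjusted p = 0.00628). Fdx1, a ferredoxin, rose by 0.97 on the log2 scale (adjusted p = 0.00473). Ndufab1, which encodes the acyl carrier protein bound by LYRM4, was raised (0.90, adjusted p = 0.0300), a call lost without vehicle replicate 1 (0.97, adjusted p = 0.0573), vehicle replicate 3 (0.73, adjusted p = 0.0966) or AOA replicate 1 (0.64, adjusted p = 0.109). Fdx2 (-0.01) and Fdxr (0.04 on the log2 scale) were not called. Lyrm4 and Fdx1 thus lay at 1.02 and 0.97 and Nfs1 at 0.16 on the log2 scale, and the difference between the genes was not tested.

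Of 7 other genes of cluster transfer and targeting, 3 were called, all of them raised, beside 53.0% called and 26.2% raised over all tested genes. Bola3, which acts with GLRX5 in delivering clusters, rose from 3.33, 9.76 and 4.72 CPM to 24.0, 15.5 and 18.0 CPM, a log2 fold change of 1.68 (SE 0.36, edgeR adjusted p = 0.00391). Hspa9, the mitochondrial chaperone, rose from 134, 267 and 127 CPM to 382, 515 and 474 CPM, a log2 fold change of 1.38 (SE 0.28, edgeR adjusted p = 0.00320). In both, vehicle replicate 2 was the highest vehicle library and still lay below the AOA libraries. Nfu1, which passes clusters to late-acting targets, was the other gene raised (0.48 on the log2 scale) and was named after its values were seen. Hscb, the partner of HSPA9, was at -0.50 (edgeR adjusted p = 0.0697) and was lower with AOA in 3 of 3 mice. It was called lowered with the mouse as a block, as given above.

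In the cytosolic pathway 5 of 11 genes were raised and 2 lowered, where 26.2% of all tested genes were raised and 26.8% lowered. Nubp2, part of the scaffold, rose from 32.2, 39.6 and 35.4 CPM to 71.8, 68.7 and 63.1 CPM, a log2 fold change of 0.92 (SE 0.13, edgeR adjusted p = 0.000522). Ciapin1, an electron carrier of this pathway, rose by 0.66 (adjusted p = 0.0116). Ciao2a was raised by 0.74 (adjusted p = 0.0244), but the call was lost without vehicle replicate 1 (0.63, adjusted p = 0.0813), vehicle replicate 3 (0.74, adjusted p = 0.0561) or AOA replicate 1 (0.44, adjusted p = 0.0780). Mms19, which targets clusters to DNA polymerases and helicases, fell from 168, 122 and 171 CPM to 83.9, 98.1 and 105 CPM, a log2 fold change of -0.68 (SE 0.17, edgeR adjusted p = 0.00764). Ndor1, the reductase that feeds CIAPIN1, fell by 0.73 on the log2 scale (adjusted p = 0.00168). Ciapin1 and Ndor1, whose products act together, thus differed in direction.

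**Figure D3:**
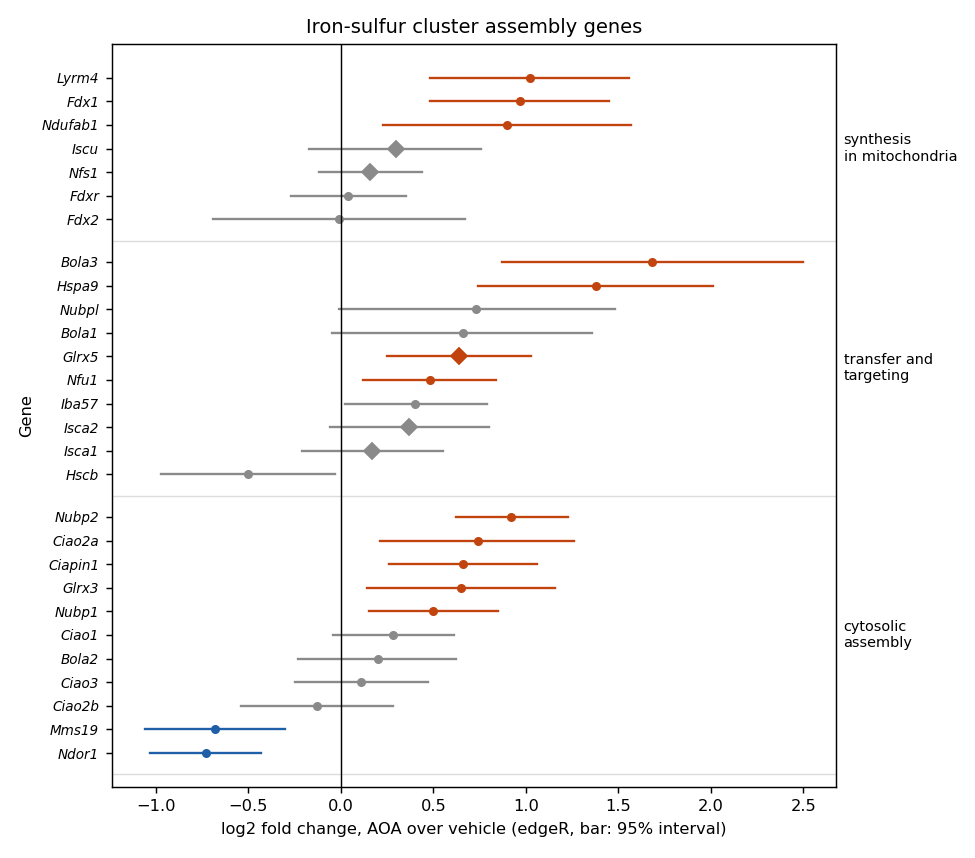
Log2 fold change of AOA relative to vehicle with its 95% interval for the genes of cluster assembly, by step, with diamonds for Nfs1, Iscu, Glrx5, Isca1 and Isca2. Red marks genes raised, blue genes lowered and grey genes not called. Values run from -0.73 for Ndor1 to 1.68 for Bola3.

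Of 22 iron genes tested outside the 9, 4 were raised, 9 were lowered and 9 were not called, with a median log2 fold change of -0.34, where 26.2% and 26.8% of all tested genes were raised and lowered. In uptake and mitochondrial import, 1 of 7 was raised and 4 were lowered. Slc39a8, which encodes the metal importer ZIP8, rose from 13.2, 14.2 and 15.7 CPM to 25.7, 29.7 and 27.2 CPM, a log2 fold change of 0.94 (SE 0.15, edgeR adjusted p = 0.000847). Slc25a37, which encodes mitoferrin 1 of the inner mitochondrial membrane, fell from 139, 93.7 and 93.6 CPM to 51.1, 42.3 and 38.7 CPM, a log2 fold change of -1.30 (SE 0.19, edgeR adjusted p = 0.000530). Slc25a28, mitoferrin 2, was lowered (-0.81 on the log2 scale, adjusted p = 0.0125), a call lost without vehicle replicate 1 (-0.66, adjusted p = 0.0551) or vehicle replicate 3 (-0.65, adjusted p = 0.0526). Mcoln1, a channel that releases iron and calcium from lysosomes, fell by 0.69 on the log2 scale (adjusted p = 0.00593). The fourth gene lowered, Tfr2, lay at 0.714 to 1.14 CPM with vehicle and at or below 0.101 CPM with AOA, under the level set for naming a gene. Tfrc and both mitoferrin messages thus differed in direction.

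Of 4 storage genes besides Fth1, 1 was called. This gene, Pcbp1, which encodes a chaperone that delivers iron to ferritin, rose from 219, 225 and 211 CPM to 309.9, 353 and 343 CPM, a log2 fold change of 0.62 (SE 0.13, edgeR adjusted p = 0.00358). Ftl1, Ncoa4 and Pcbp2 were not called. Of 6 genes of iron and heme export and breakdown, 2 were raised, 1 was lowered and 3 were not called. Blvrb was also lowered with the mouse as a block (-1.12, adjusted p = 0.0103, against -1.25 and 0.0543 without it). These counts stand beside a called share of 53.0% over all tested genes. Flvcr1, a heme exporter that also carries choline, rose by 0.79 on the log2 scale (adjusted p = 0.00137), and Blvra, which reduces biliverdin, by 0.80 (adjusted p = 0.0125). Hmox1, heme oxygenase 1, fell from 8.10, 13.6 and 6.79 CPM to 1.29, 2.33 and 1.11 CPM, a log2 fold change of -2.59 (SE 0.38, edgeR adjusted p = 0.000536). Hmox1 is also high in macrophages. The 4 myeloid markers analysed here (Lyz2, Itgam, Cd14 and Cd68) summed to 55.5 to 67.5 CPM with vehicle and 4.18 to 7.82 CPM with AOA, and their part in the fall of Hmox1 was not tested. Itgam, which T cells can also carry, was at 40.5 to 52.9 CPM with vehicle and 0.598 to 2.11 CPM with AOA, and Cd68 at 13.3 to 15.2 CPM and 3.31 to 4.49 CPM. Cd14 was at 0.271 to 1.03 CPM with vehicle and at most 0.0529 CPM with AOA, with no counts in AOA replicates 1 and 3. Lyz2 was at most 0.317 CPM with vehicle, with no counts in replicates 1 and 3, and at 0.101 to 1.16 CPM with AOA.

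Of 5 sensing genes besides Ireb2, 4 were lowered and none was raised, where 26.8% of all tested genes were lowered and 26.2% raised. Epas1, which encodes HIF-2α, fell from 26.7, 42.6 and 19.5 CPM to 1.10, 2.85 and 1.82 CPM, a log2 fold change of -3.95 (SE 0.39, edgeR adjusted p = 7.60e-05). Hif1a, which encodes HIF-1α, a related subunit that is also controlled by oxygen and iron, fell from 619.5, 429.8 and 648 CPM to 198, 237 and 204 CPM, a log2 fold change of -1.41 (SE 0.19, edgeR adjusted p = 0.000325). Zfp36, whose product degrades messages and is known to act on Tfrc in iron shortage, fell by 1.64 on the log2 scale (adjusted p = 0.000846). Fbxl5, which targets IRP2 for degradation, was the fourth gene lowered and was named after its values were seen. It was at 101, 70.2 and 89.6 CPM with vehicle and at 58.6, 39.7 and 38.3 CPM with AOA, a log2 fold change of -0.93 (SE 0.20, edgeR adjusted p = 0.00416). Aco1, which encodes IRP1, was at 50.6, 54.1 and 49.3 CPM with vehicle and at 34.6, 50.8 and 50.1 CPM with AOA and was not called (-0.19, edgeR adjusted p = 0.376). The messages of both iron regulatory proteins were thus not called, while that of the ligase for IRP2 was lower.

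**Figure D4:**
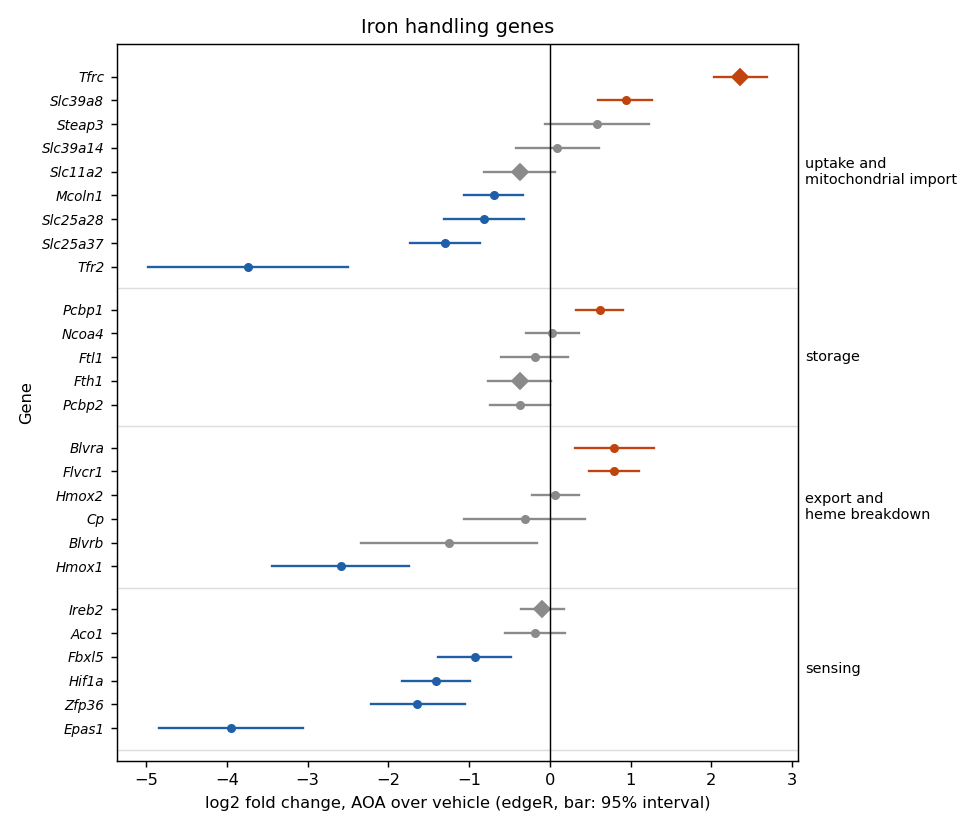
Log2 fold change of AOA relative to vehicle with its 95% interval for the genes of iron uptake, storage, export and sensing, with diamonds for Tfrc, Slc11a2, Fth1 and Ireb2. Red marks genes raised, blue genes lowered and grey genes not called. Tfrc, at 2.36, is the highest value plotted and Epas1, at -3.95, the lowest.

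Proteins that carry iron-sulfur clusters are the users of this pathway. Of 32 such genes examined, 18 were raised, 3 were lowered and 11 were not called, with a median log2 fold change of 0.58, against the same 26.2% raised and 26.8% lowered over all tested genes. Among 12 mitochondrial members 7 were raised and 1 was lowered. Ndufs8 of respiratory complex I rose from 35.4, 41.5 and 38.3 CPM to 109.6, 70.7 and 73 CPM, a log2 fold change of 1.14 (SE 0.19, edgeR adjusted p = 0.000961). Sdhb of complex II rose by 1.05 (adjusted p = 0.000278) and Cisd1, a protein of the outer mitochondrial membrane, by 0.93 on the log2 scale (adjusted p = 0.00119). These 3 messages, of 1027, 1073 and 965 bases, fall in the length class of 800 to 1200 bases described above, AOA replicate 1 was the highest AOA library for each, and the part of length was not tested. Without AOA replicate 1 their log2 fold changes were 0.91, 0.95 and 0.82, and all 3 remained called. Etfdh, which passes electrons from fatty acid oxidation to ubiquinone, was lowered (-0.45 on the log2 scale, adjusted p = 0.0169), a call lost without vehicle replicate 1 (-0.39, adjusted p = 0.0807) or vehicle replicate 3 (-0.39, adjusted p = 0.0889). Lias, which makes lipoic acid, and Fech, which makes heme, were not called, at 0.23 and -0.03 on the log2 scale.

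Among 20 nuclear and cytosolic members 11 were raised and 2 were lowered, beside 26.2% raised and 26.8% lowered over all tested genes. Brip1, a helicase of DNA repair, rose from 10.4, 12.7 and 12.9 CPM to 79.2, 89.0 and 96.4 CPM, a log2 fold change of 2.87 (SE 0.15, edgeR adjusted p = 1.12e-05). Dna2, a nuclease and helicase of replication, rose by 2.56 (adjusted p = 3.50e-05), and Pole, the catalytic subunit of a replicative polymerase, by 2.40 on the log2 scale (adjusted p = 4.15e-05). These are genes of DNA synthesis, and the summed level of the 6 proliferation genes moved in the same direction, as given beside Tfrc. Their part in these rises was not tested. Rsad2, an antiviral enzyme induced by interferon, fell from 3.65, 3.04 and 5.48 CPM to 0.644, 0.634 and 1.41 CPM, a log2 fold change of -2.18 (SE 0.41, edgeR adjusted p = 0.00207). Ercc2, a helicase of nucleotide excision repair and transcription, was lowered (-0.53 on the log2 scale, adjusted p = 0.0197). That call was lost without vehicle replicate 1 (-0.37, adjusted p = 0.105), vehicle replicate 3 (-0.50, adjusted p = 0.0623), AOA replicate 1 (-0.50, adjusted p = 0.0550) or AOA replicate 3 (-0.49, adjusted p = 0.0752).

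**Figure D5:**
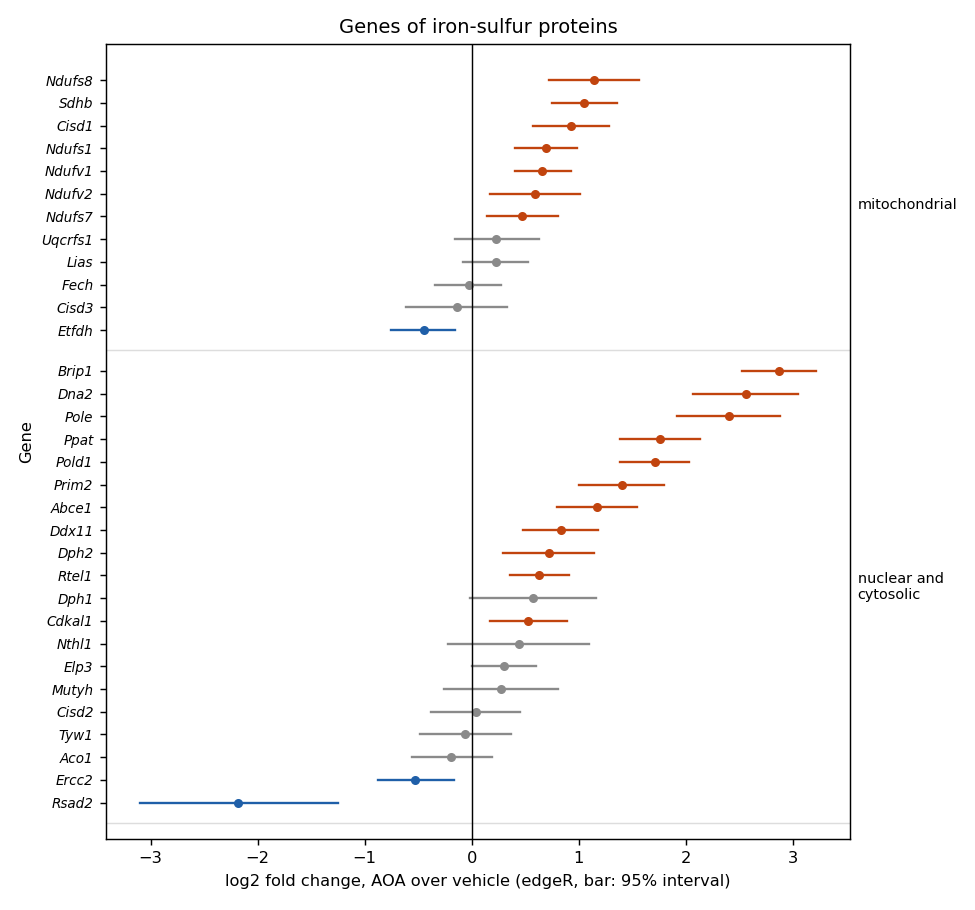
Log2 fold change of AOA relative to vehicle with its 95% interval for 32 genes of iron-sulfur proteins, split into mitochondrial members and nuclear and cytosolic members. Red marks genes raised, blue genes lowered and grey genes not called. Values run from -2.18 for Rsad2 to 2.87 for Brip1.

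The genes whose profile over the 6 libraries lay nearest to Nfs1 were Topors, Eif3g and Atf2, at Euclidean distances of 0.0551, 0.0738 and 0.0891 between centred log2 CPM values. Nearest to Tfrc were Lta (0.133), Ctnnal1 (0.188) and Pmch (0.195), with log2 fold changes of 2.31, 2.65 and 2.29. Nearest to Fth1 were Urod (0.0872), Mapk11 (0.0935) and Nudt22 (0.101). Urod encodes an enzyme of heme synthesis, and its log2 fold change was -0.34. The 6 libraries share their grouping, so genes of a like fold change lie near each other on this measure.

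Cell type markers were read in the same libraries. The CD8 T cell markers Cd8a, Cd8b1, Cd3e and Cd3d summed to 2363 to 3129 CPM with vehicle and 3599 to 4176 CPM with AOA, so that the labelled cell type was present in all. Cd8a and Cd8b1 rose, by 1.03 and 0.64 on the log2 scale, and Cd3e (-0.27) and Cd3d (-0.13) were not called. CD4 T cell markers (Cd4, Foxp3 and Zbtb7b) summed to 154 to 205 CPM with vehicle and 32.4 to 53.1 CPM with AOA. Of these Cd4 and Zbtb7b fell, by 3.08 and 2.17 on the log2 scale, while Foxp3 was not called, at 11 to 15.9 CPM with vehicle and 15.5 to 18.3 CPM with AOA. The NK cell markers Ncr1 and Klrb1c summed to 20.1 to 114 CPM with vehicle and 3.53 to 11.6 CPM with AOA. Nearly all of this was Klrb1c, while Ncr1 had no counts in vehicle replicates 1 and 3, lay at 2.35 CPM in vehicle replicate 2 and was at 0.151 to 0.581 CPM with AOA. The B cell markers Cd79a, Cd79b and Ms4a1 summed to 11.8 to 15.1 CPM with vehicle and 21.6 to 30.2 CPM with AOA, and of these Cd79b alone was called (2.02-fold higher), with Cd79a and Ms4a1 at most 2.28 CPM. Erythroid cells express iron genes at very high levels, but their 8 markers were not analysed here. The part of these cells in the iron gene results was not tested.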

How the data were processed

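RNA of CD8+ T cells from 3 vehicle and 3 AOA cultures was sequenced as stranded paired-end messenger RNA libraries. Reads were aligned by the authors in STAR with its defaults. The counts deposited are unnormalised, rest on uniquely mapped reads and stand beside the Entrez number, symbol and length of each gene. The submitters' processing notes also name mm10, featureCounts, bcl2fastq and DESeq2. No source used here gives the versions of these tools, the annotation, the strand setting of the counter or a gene filter, and genes with shared exons or paralogs could therefore lose or share reads.

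Analysis of the deposited counts used edgeR 4.0.16 under R 4.3.3. Of 11922 genes, 4 were at 0 in every library and 11759 passed filterByExpr with its minimum count of 10. TMM scaling was followed by edgeR's quasi-likelihood test in its robust form, without covariates, with Benjamini-Hochberg adjustment over all tested genes and a threshold of 0.05. Intervals are 95% intervals of the fitted change. CPM used TMM library sizes, log2 CPM used a prior count of 2, and RPKM used the deposited lengths. A count of 1 was worth 0.0460 to 0.0794 CPM across libraries, which covers counting error only. The chi-square per gene between replicates was 10.2 to 72.3, above sampling noise. The steps were tested on simulated data.

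The members and lists were chosen with earlier results of these data known. Some genes of the lists are not reported here and enter no count or plot of a list. Named are all members, up to 3 called genes per direction and list with the largest change (the higher group averaging 1 CPM or more), markers, and the 3 nearest profiles to Nfs1, Tfrc and Fth1. The length class of 800 to 1200 bases was chosen after values had been seen. Alternatives were DESeq2 1.42.0, limma 3.58.1 (voom), other scalings and filters, a log2 fold change of at least 1, the mouse as a replicate block, and each library left out. The pairing comes from the mouse donor numbers of the labels, and deviations from group means correlated with r of 0.0868, 0.189 and 0.194 across genes within mice 1, 2 and 3. Genes are not independent replicates in these correlations. Coordinates and IREs come from GENCODE vM21 (GRCm38), which may differ from the annotation used for counting.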

Additional observations from a re-analysis of the deposited data

How the results depend on the processing

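No log2 fold change of the 9 genes, or of the 32 other genes that were refitted, changed sign under any of the alternatives run. Calls that also needed a log2 change of 1 or more in size left 3081 genes changed, 1418 raised and 1663 lowered, with 1 of the 9 genes called and 1 raised, since Glrx5 at 0.64 fell below that size. The other assembly genes then had 3 raised and 0 lowered, the other iron genes 0 raised and 6 lowered, mitochondrial iron-sulfur proteins 2 raised and 0 lowered, and nuclear and cytosolic ones 7 raised and 1 lowered. Upper quartile scaling gave 2676 genes raised and 3607 lowered over all tested genes, against 3086 and 3147 in the main analysis. It called 1 of the 9 lowered, Fth1 at -0.46, and left 8 other assembly genes raised, against 11. A minimum of 10 CPM in 3 libraries left 1 nuclear or cytosolic iron-sulfur protein lowered, since Rsad2 was not tested there. With each library left out in turn, 4952 to 6796 genes were called, 2519 to 3499 raised and 2433 to 3297 lowered. Of the 9 genes, 2 to 5 were then called, 2 to 3 raised and 0 to 2 lowered. Nfs1 ranged from 0.14 to 0.23, Isca1 from 0.08 to 0.31, Isca2 from 0.17 to 0.47, Iscu from 0.17 to 0.55, Slc11a2 from -0.54 to -0.22 and Fth1 from -0.49 to -0.27. Other assembly genes raised were 6 to 12, mitochondrial iron-sulfur proteins lowered 0 to 1 and nuclear and cytosolic ones lowered 1 to 2. Where a library left out changed these counts, the cause was not tested. A replicate block by mouse gave 6292 called genes, 6007 of them shared with the 6233 called without it, and the block changed no call of the 9 genes. Among the genes of the lists it changed the calls of Bola1, Hscb and Blvrb alone, all of them gained. Of 477 alternative values of the 32 other genes, 446 kept direction and call and 31 kept direction only, 17 of these under the size limit and 14 with a library left out. A count of 1 was worth at most 0.0794 CPM, so depth limits levels near it, such as those of Tfr2 with AOA.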
